A study of Mus musculus with 6 samples.

Results

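A group of 10 genes, out of 21652 in the deposited count table, was followed here, all of them encoding selenoproteins, the enzymes and folding factors that carry selenocysteine. They were chosen by gene symbol, with earlier results of these data known. The set holds the glutathione peroxidases Gpx1, Gpx3 and Gpx4, the thioredoxin reductases Txnrd1 and Txnrd2, and Selenok, Selenot, Selenof, Selenom and Selenow. Of these, 4 are cytosolic (Gpx1, Gpx4, Txnrd1 and Selenow), 4 are resident in the endoplasmic reticulum (ER; Selenok, Selenot, Selenof and Selenom), Txnrd2 is mitochondrial and Gpx3 is secreted. Of the 10, 8 had enough counts to be tested, out of 12782 genes tested in all.

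Ribosome footprints were measured in MIN6, a mouse insulin-secreting line from a pancreatic beta-cell tumour. Of the 6 libraries, 3 came from cells expressing sgLTN1, a CRISPR guide named for Ltn1, the ubiquitin ligase of ribosome-associated quality control, and 3 from cells expressing sgNT, whose name is read as that of a guide without a target. Both groups share the cell line and 1 batch label, no other treatment is given for either, and the labels do not say whether the sgLTN1 cells are a clone or a pool or whether libraries came from separate cultures, so that p-values measure the spread between these libraries, which may be technical. The libraries held between 4373467 and 11198735 counts.

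Selenocysteine is inserted at UGA, which is otherwise a stop codon. A stem-loop in the 3' untranslated region, the SECIS element, is bound by the protein product of Secisbp2, and the elongation factor encoded by Eefsec then delivers the selenocysteine tRNA to the ribosome at the UGA. Selenoproteins carry out thiol chemistry: peroxidases remove hydrogen peroxide and lipid peroxides, thioredoxin reductases keep thioredoxin reduced, and several members of the ER work beside its folding and degradation machinery. Beta cells are known for low levels of several peroxide-removing enzymes. The counts here are totals per gene, so footprints before, at and after the UGA codon were not resolved and the efficiency of recoding was not measured. RNA-seq was not used here, so mRNA level and ribosome density cannot be told apart. Transcript lengths were not used either, so levels are compared between libraries. Counts, CPM and shares of a sum given for different genes also depend on length and do not rank their levels.

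The labels were first checked on the targeted gene. Ltn1 held 65.3, 71.5 and 64.9 CPM (counts scaled to a common library size, per 1e6 counts, after TMM normalization) in the sgLTN1 libraries, against 143, 145 and 141 CPM in the sgNT libraries. The log2 fold change of sgLTN1 over sgNT was -1.09 (SE 0.07), and Ltn1 fell (adjusted p = 9.24e-05; edgeR, quasi-likelihood, with p adjusted by the method of Benjamini and Hochberg over all tested genes). Of 8 beta-cell markers 7 were tested, and only Slc2a2, the glucose transporter of rodent beta cells, lay near 0, with 22 counts over the sgLTN1 libraries and 13 over the sgNT libraries. Slc30a8, the zinc transporter of insulin granules, held 675, 755 and 673 CPM in sgLTN1, against 643, 590 and 561 CPM in sgNT. The groups did not overlap (log2 fold change 0.23, SE 0.07, edgeR adjusted p = 0.169), and in the authors' deposited table it rose by 0.25 with adjusted p = 0.0479. It was the 1 marker of the 7 called there. That table calls 8.42% of the 2697 genes with an adjusted p, 6.79% as higher in sgLTN1. The 6 acinar and duct markers together made 0.903 to 3.69 CPM in the sgLTN1 libraries and 1.61 to 1.83 CPM in the sgNT libraries, none of the 6 having enough counts to be tested. The 5 markers of other islet cells summed to 578 to 655 CPM in sgLTN1 and 579 to 612 CPM in sgNT, nearly all of it Gcg, and within them Sst had a log2 fold change of 0.50 (SE 0.09, edgeR adjusted p = 0.0620) and Ppy one of 0.82 (SE 0.26, edgeR adjusted p = 0.176). Of 6 fibroblast, endothelial and blood markers only Col1a1 and Pdgfrb were tested, and their list summed to 9.84 to 12.9 CPM in sgLTN1 and 9.15 to 13.4 CPM in sgNT. In bulk libraries, fewer cells of a type and less RNA per cell cannot be told apart, and the part of these markers in the results was not tested.

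None of the 8 tested selenoprotein genes passed an adjusted p of 0.05 in edgeR, a threshold that 0.180% of all tested genes passed, 0.0861% on the higher and 0.0939% on the lower side. An unadjusted p below 0.05 was reached by 2 of them, Txnrd2 and Selenof, both higher in sgLTN1, where 15.6% of all tested genes reached it. Of the 8, 6 had a log2 fold change above 0, against 47.3% of all tested genes, and their median was 0.25 with a range of -0.16 to 0.34, beside a median of -0.02 over all tested genes. The groups did not overlap for 3 of the 8, Txnrd2 and Selenof on the higher side and Txnrd1 on the lower, and such separation was seen in 20.2% of all tested genes, 10.1% on the higher and 10.1% on the lower side. These counts and medians leave out Gpx1 and Gpx4 and describe only the genes that passed the filter on low counts.

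**Figure D1:**
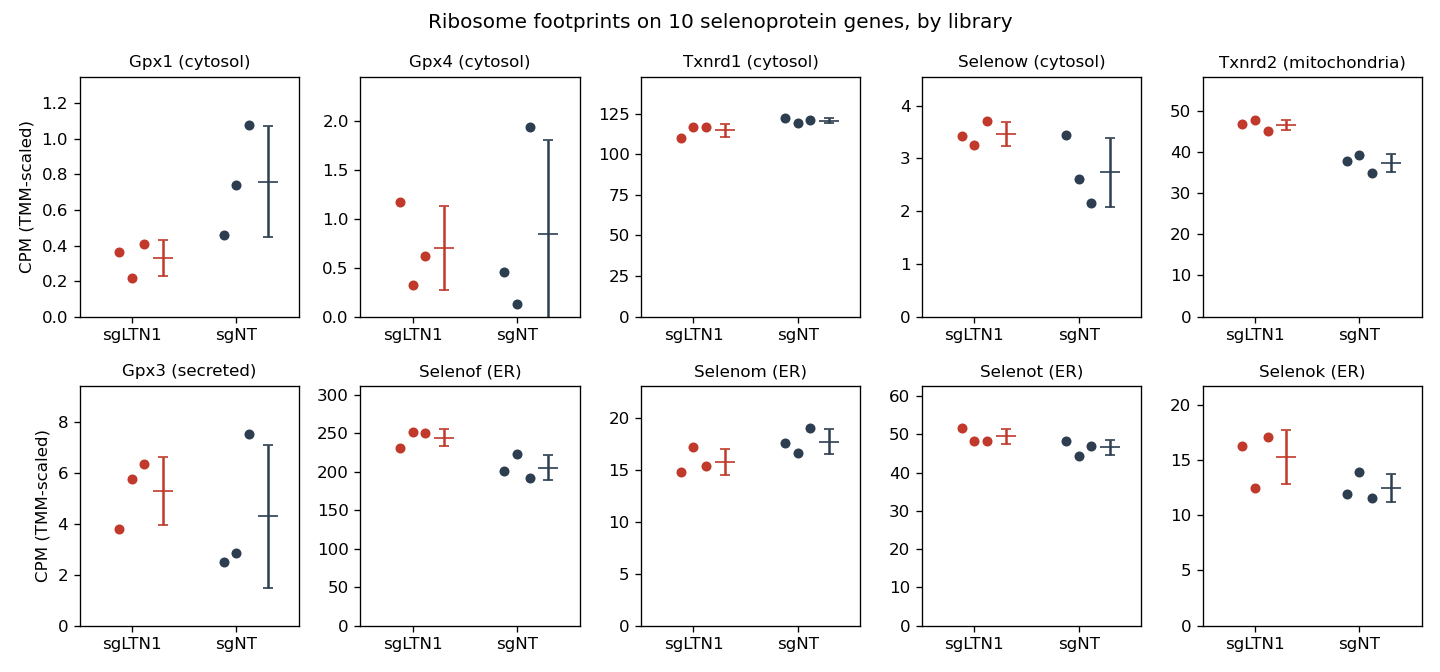
TMM-scaled CPM of 10 selenoprotein genes in each library (y axis, from 0, a separate scale per gene), with sgLTN1 left of sgNT; points are libraries 1 to 3 and the bar beside them is the mean with SD (n = 3; the lower bar of Gpx4 in sgNT runs below 0 and is not drawn in full). Txnrd2 and Selenof lay higher in each sgLTN1 library than in any sgNT library, whereas Gpx1 and Gpx4 stayed below 2 CPM everywhere.

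Among the glutathione peroxidases, Gpx1 and Gpx4 were the least covered genes of the set. Gpx1 (ENSMUSG00000063856.9), the cytosolic enzyme that reduces hydrogen peroxide with glutathione, held 4, 2 and 2 counts in sgLTN1 libraries 1 to 3, against 2, 6 and 5 counts in sgNT libraries 1 to 3. Over the groups this came to 8 and 13 counts, a ratio of scaled counts of sgLTN1 over sgNT of 0.418 with an exact 95% interval of 0.150 to 1.09. Scaled to library size, Gpx1 held 0.361, 0.217 and 0.411 CPM in sgLTN1, against 0.458, 0.742 and 1.08 CPM in sgNT. Its groups thus did not overlap on the lower side, as for 10.1% of all tested genes. The nearest libraries, sgLTN1 library 3 and sgNT library 1, held 2 counts each. Gpx4 (ENSMUSG00000075706.12), which reduces lipid hydroperoxides in membranes and protects cells from ferroptosis, held 13, 3 and 3 counts in sgLTN1 and 2, 1 and 9 counts in sgNT. Its ratio was 1.08 with an interval of 0.496 to 2.43. Both intervals include 1 and cover counting error only. Neither gene was tested, and a difference was not detectable at this depth.

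Reads that also match a near-identical copy can be lost or split in gene counting, and how the authors handled such reads is not given in the sources used here. In the RefSeq gene table of the assembly GRCm38.p6, 2 pseudogenes are named after Gpx4, 1 after Selenot, 8 after Selenok and none after the other 7 genes, Gpx1 included. None of these pseudogenes is listed in the count table. Only pseudogenes whose symbol begins with that of the gene were counted, so copies under other names would be missed. Selenok held 379 counts in sgLTN1 and 218 in sgNT. The part of read sharing in the counts of Selenok, and in the low counts of Gpx4 and Gpx1, was not tested.

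Gpx3 (ENSMUSG00000018339.13), the secreted peroxidase of plasma, was listed at 3.79, 5.76 and 6.37 CPM in sgLTN1, against 2.52, 2.85 and 7.55 CPM in sgNT. The highest of the 6 values was sgNT library 3, and the groups overlapped. Its log2 fold change was 0.31 (SE 0.37, edgeR adjusted p = 0.748). This value depended on single sgNT libraries: it was 0.91 without sgNT library 3 and 0.03 without sgNT library 2, with adjusted p = 0.301 and 0.990 in edgeR.

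The fold changes of the thioredoxin reductases differed in sign, but none passed in edgeR and the difference was not tested. Txnrd2 (ENSMUSG00000075704.18), which reduces thioredoxin in mitochondria, held 46.8, 47.7 and 45.2 CPM in sgLTN1 libraries, against 37.8, 39.2 and 34.9 CPM in sgNT libraries. Every sgLTN1 library lay above every sgNT library, and the means were 46.5 ± 1.25 and 37.3 ± 2.18 CPM (SD, n = 3 each). The log2 fold change was 0.32 (SE 0.08), a 1.24-fold higher level, with unadjusted p = 0.00257 and adjusted p = 0.128 in edgeR, smaller than for the other 7 tested genes of the set. For Txnrd2 the authors' deposited table gives a log2 fold change of 0.34 (SE 0.13) with an unadjusted p of 0.0115 and no adjusted p.

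Txnrd1 (ENSMUSG00000020250.12), the cytosolic reductase and a known NRF2 target, went slightly the other way. It held 110, 117 and 117 CPM in sgLTN1, against 122, 119 and 121 CPM in sgNT. The groups did not overlap, but the distance was small, with a log2 fold change of -0.08 (SE 0.06, edgeR adjusted p = 0.612).

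Txnrd3, the thioredoxin glutathione reductase known from testis and not one of the 10, had the lowest fold change among the selenoproteins tested. It held 3.16, 2.71 and 2.88 CPM in sgLTN1, against 4.13, 6.43 and 6.04 CPM in sgNT, from 74 and 98 counts in all. The groups did not overlap, and the log2 fold change was -0.94 (SE 0.23) with unadjusted p = 0.00179 and adjusted p = 0.122 in edgeR. The ratio of Txnrd2 to Txnrd1 within a library, which does not depend on how libraries are scaled, was 0.427, 0.408 and 0.388 in sgLTN1 and 0.310, 0.331 and 0.289 in sgNT. That of Txnrd3 to Txnrd1 was 0.0289, 0.0233 and 0.0247 in sgLTN1 and 0.0338, 0.0542 and 0.0499 in sgNT. Both ratios separated the groups, in opposite directions. The 3 reductases were set side by side after their values were seen, and the ratios carry no test.

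**Figure D2:**
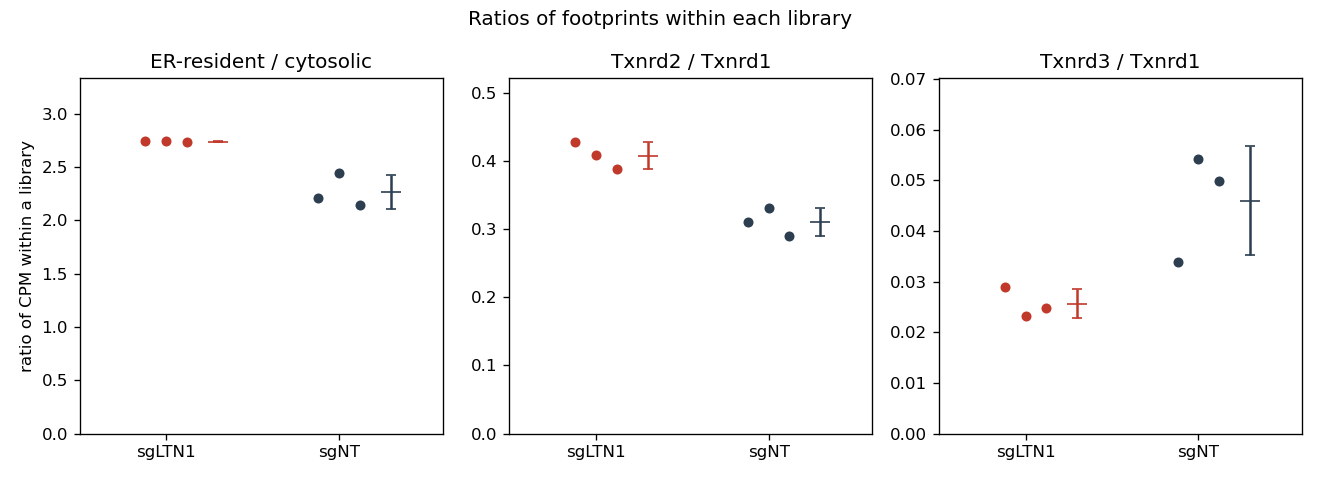
Ratios of CPM within each library (y axis, no unit, from 0): the summed CPM of the 4 ER-resident over the 4 cytosolic genes, Txnrd2 over Txnrd1 and Txnrd3 over Txnrd1, with sgLTN1 left of sgNT. Points are libraries 1 to 3 and bars the mean with SD (n = 3); the first and second ratios lie higher in every sgLTN1 library, and the third lies lower.

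Selenow (ENSMUSG00000041571.11), a small thioredoxin-like protein of the cytosol, held 3.43, 3.26 and 3.70 CPM in sgLTN1, against 3.44, 2.60 and 2.16 CPM in sgNT. Library 1 of sgNT lay among the sgLTN1 libraries. The log2 fold change was 0.34 (SE 0.25, edgeR adjusted p = 0.560), with 86 counts in sgLTN1 and 46 in sgNT behind it. Without sgNT library 1 it was 0.52 (adjusted p = 0.422 in edgeR).

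Among the ER-resident proteins, Selenof (ENSMUSG00000037072.17) held the most counts. It is a thiol-disulfide oxidoreductase of the ER lumen that binds the glycoprotein-folding sensor UGGT. It held 231, 252 and 250 CPM in sgLTN1 libraries, against 201, 223 and 192 CPM in sgNT libraries. The lowest sgLTN1 library lay above the highest sgNT library, and the means were 245 ± 11.7 and 206 ± 15.8 CPM (SD, n = 3 each). The log2 fold change was 0.25 (SE 0.07), a 1.19-fold higher level, with unadjusted p = 0.00586 and adjusted p = 0.161 in edgeR.

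The call on Selenof depended on the tool and its settings. In the authors' deposited table Selenof has a log2 fold change of 0.27 (SE 0.09) and an adjusted p of 0.0479, so it rose there. Its unadjusted p there is 0.00384, adjusted over 2697 genes, where edgeR adjusted over 12782. With replicate number as a block, edgeR called it too (adjusted p = 0.0291), among 609 genes in all. The authors' deposited table calls 8.42% of the 2697 genes to which it gives an adjusted p, 6.79% as higher in sgLTN1, and of the 10 selenoprotein genes only Selenof, Txnrd1 and Selenot have one. Run again here on the same counts, DESeq2 returned that adjusted p for Selenof. With a loess offset per library, which removes the dependence of fold changes on abundance, the log2 fold change of Selenof was 0.18 (edgeR adjusted p = 0.255, where 0.156% of all genes passed), and with libraries scaled by total counts it was 0.17 (edgeR adjusted p = 0.257).

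Selenot (ENSMUSG00000075700.11), a thioredoxin-like protein of the ER membrane that is known from neuroendocrine cells including beta cells, held 51.8, 48.4 and 48.3 CPM in sgLTN1, against 48.4, 44.4 and 47.0 CPM in sgNT. The sgNT library with the highest value lay just above the lowest sgLTN1 library, so that the groups overlapped narrowly, and the log2 fold change was 0.09 (SE 0.08, edgeR adjusted p = 0.619). Selenok (ENSMUSG00000042682.11), an ER membrane protein that acts with the palmitoyltransferase encoded by Zdhhc6 and binds derlins, held 16.3, 12.5 and 17.1 CPM in sgLTN1, against 11.9, 13.9 and 11.6 CPM in sgNT. Library 2 was the lowest of sgLTN1 and the highest of sgNT, and the groups overlapped. Its log2 fold change was 0.26 (SE 0.15, edgeR adjusted p = 0.430), and 0.41 without sgLTN1 library 2.

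Selenom (ENSMUSG00000075702.11), a thioredoxin-like protein of the ER lumen and a relative of Selenof in structure, lay on the other side of 0. It held 14.8, 17.2 and 15.4 CPM in sgLTN1, against 17.6, 16.6 and 19.0 CPM in sgNT. The groups overlapped through library 2 of each, and the log2 fold change was -0.16 (SE 0.11, edgeR adjusted p = 0.545). The ER-resident genes therefore did not share 1 direction, 3 being above 0 and 1 below.

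**Figure D3:**
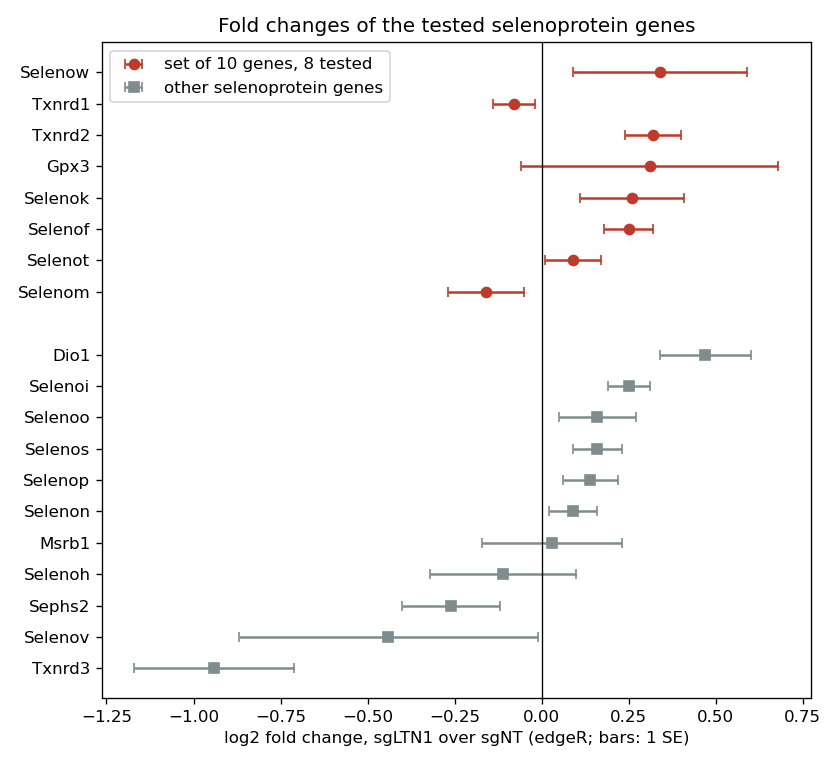
Log2 fold changes of sgLTN1 over sgNT from edgeR (x axis; bars are 1 SE) for the 8 tested genes of the set of 10 (circles) and for 11 other tested selenoprotein genes (squares). Values run from -0.94 for Txnrd3 to 0.47 for Dio1, and none passed an adjusted p of 0.05 in edgeR.

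The ER-resident and cytosolic genes were then compared as classes. The median log2 fold change was 0.17 over the 4 ER-resident genes and 0.13 over the 2 cytosolic genes tested, Txnrd1 and Selenow, a difference of 0.04. The sign of that difference was not stable: it was -0.02 with the loess offset, -0.02 without sgLTN1 library 1 and -0.04 without sgNT library 1. With genes classed by where they are made, Gpx3 joining the ER-resident and Txnrd2 the cytosolic genes, the difference was -0.07.

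Summed footprints gave another picture. The 4 ER-resident genes together held 314, 330 and 331 CPM in sgLTN1 libraries, against 279, 298 and 270 CPM in sgNT libraries. The 4 cytosolic genes together held 114, 121 and 121 CPM in sgLTN1, against 126, 122 and 126 CPM in sgNT. The ER-resident to cytosolic ratio within a library was 2.74, 2.74 and 2.73 in sgLTN1 and 2.21, 2.44 and 2.14 in sgNT, so that the mean ratio was 1.21-fold higher in sgLTN1. The sums are carried by single genes: Txnrd1 made 95.7% to 97.2% of the cytosolic sum and Selenof 71.2% to 76.4% of the ER-resident sum. Without Selenof, an alternative added after the values were seen, the ratio was 0.725, 0.648 and 0.666 in sgLTN1 and 0.617, 0.613 and 0.615 in sgNT, 1.10-fold higher in sgLTN1. No p is given for these sums, since the genes were chosen with earlier results of these data known.

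Of 14 other mouse selenoprotein genes listed, 11 were tested, and none passed in edgeR. At an unadjusted p below 0.05 there were 3 higher and 1 lower in sgLTN1, against 1023 higher and 966 lower of all 12782 tested genes. Of the 11, 7 lay above 0, against 47.3% of all tested genes, with a median of 0.09. DESeq2 called 1 of the 4 that it gave an adjusted p, Selenoi, where it called 8.42% of all 2697 genes with an adjusted p. Selenoi, which encodes an ethanolamine phosphotransferase of phospholipid synthesis, held 174, 176 and 160 CPM in sgLTN1, against 143, 142 and 142 CPM in sgNT. The groups were well apart, with a log2 fold change of 0.25 (SE 0.06, adjusted p = 0.125 in edgeR), and in the authors' deposited table it rose by 0.28 (SE 0.09, adjusted p = 0.0360).

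Dio1, the deiodinase that activates thyroid hormone, held 14.9, 14.9 and 17.1 CPM in sgLTN1, against 10.8, 12.4 and 9.92 CPM in sgNT. It had the highest log2 fold change of the selenoprotein genes tested, 0.47 (SE 0.13, adjusted p = 0.149 in edgeR), and the groups did not overlap. Selenos, which links derlins to VCP in ER-associated degradation, held 179, 183 and 183 CPM in sgLTN1, against 168, 171 and 149 CPM in sgNT, a log2 fold change of 0.16 (SE 0.07, adjusted p = 0.311 in edgeR).

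The other genes of this list follow, apart from Txnrd3, given above, and Sephs2, given below. The selenium carrier gene Selenop was at 0.14 (SE 0.08), the mitochondrial Selenoo at 0.16 (SE 0.11), the ER calcium regulator Selenon at 0.09 (SE 0.07) and the methionine sulfoxide reductase Msrb1 at 0.03 (SE 0.20). The nuclear Selenoh was at -0.11 (SE 0.21). Selenov stood at -0.44 (SE 0.43) on counts that were uneven within sgNT, 14, 50 and 69, and turned to 0.23 without sgNT library 3. Gpx2, Dio2 and Dio3 held at most 10 counts in any library and were not tested.

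The genes that make and deliver selenocysteine showed no shared direction. All 10 listed were tested, none passed in edgeR or DESeq2 (which gave 2 of them an adjusted p), 5 lay above 0 and 5 below, and the median was 0.01. An unadjusted p below 0.05 in edgeR was reached by 2, 1 higher and 1 lower in sgLTN1, where 15.6% of all tested genes reached it. Sepsecs, the enzyme that forms selenocysteine on its tRNA, held 14.0, 16.0 and 15.0 CPM in sgLTN1, against 10.8, 12.9 and 13.2 CPM in sgNT (log2 fold change 0.28, SE 0.12, adjusted p = 0.318 in edgeR). Scly, the lyase that recovers selenium from selenocysteine, held 64.3, 64.2 and 76.6 CPM in sgLTN1, against 75.6, 77.1 and 82.6 CPM in sgNT (-0.21, SE 0.09, adjusted p = 0.285 in edgeR).

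Among the factors that act at the UGA codon itself, Secisbp2 was thinly covered. The remaining genes of the list are given after it. Secisbp2 was listed at 67, 31 and 16 counts in sgLTN1 and 33, 45 and 20 counts in sgNT, with a log2 fold change of -0.38 (SE 0.29) that was -0.79 without sgLTN1 library 1 and -0.18 without sgNT library 1. Its paralog Secisbp2l was at 0.07 (SE 0.12) and Eefsec at -0.04 (SE 0.20). Eefsec stood at 0.31 without sgNT library 2. Rpl30, a ribosomal protein that also binds SECIS elements, was at 0.13 (SE 0.08), with groups that did not overlap, and reads of ribosomal protein genes can be shared with pseudogenes. Sephs2, the selenophosphate synthetase that is itself a selenoprotein, was at -0.26 (SE 0.14) with every sgLTN1 library below every sgNT library, while its relative without selenocysteine, Sephs1, was at 0.04 (SE 0.16). The kinase gene Pstk, which prepares the tRNA, was at 0.37 (SE 0.24) and Trnau1ap, which binds it, at -0.02 (SE 0.26).

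Relatives that do not carry selenocysteine offer a comparison without UGA recoding, but few had enough counts to be tested. Of 7 listed, Gpx7, Msrb2 and Sephs1 were tested, none passed in edgeR, and DESeq2 gave none of them an adjusted p. None reached an unadjusted p below 0.05 in edgeR, which 15.6% of all tested genes reached. Gpx7, an ER peroxidase, was at 0.21 (SE 0.29) and Msrb2, a mitochondrial methionine sulfoxide reductase, at -0.27 (SE 0.33). Gpx5, Gpx6, Gpx8 and Msrb3 held at most 5 counts in any library.

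The thioredoxin and glutathione partners were tested in full. None of 9 passed in edgeR, and DESeq2 called none, giving an adjusted p to 1. In edgeR 1 of the 9 reached an unadjusted p below 0.05, where 15.6% of all tested genes reached it. Fold changes ran from -0.25 to 0.03 on the log2 scale with a median of -0.07. The lowest was Txnip, the glucose-induced inhibitor of thioredoxin, which held 16.7, 19.9 and 18.1 CPM in sgLTN1, against 21.8, 22.5 and 20.3 CPM in sgNT (-0.25, SE 0.11, adjusted p = 0.287 in edgeR). The thioredoxin genes Txn1 and Txn2 were at -0.16 (SE 0.09) and -0.10 (SE 0.13), and the glutaredoxin genes Glrx and Glrx2 at -0.07 (SE 0.11) and -0.12 (SE 0.19). Glutathione reductase Gsr and the glutathione synthesis genes Gss, Gclc and Gclm lay between 0.02 and 0.03, and all 4 turned negative under total-count scaling.

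Of 6 genes whose products act beside the ER selenoproteins, 5 lay above 0, against 47.3% of all tested genes. With the loess offset 4 of the 6 did, against 6308 of all 12782 tested genes. None of the 6 passed in edgeR, and DESeq2 called none of the 4 with an adjusted p. In edgeR 2 reached an unadjusted p below 0.05, both higher in sgLTN1, against 1023 higher and 966 lower of all 12782 tested genes. Zdhhc6, the palmitoyltransferase that needs Selenok, held 47.6, 47.3 and 45.2 CPM in sgLTN1, against 42.6, 40.6 and 36.5 CPM in sgNT (0.23, SE 0.08, adjusted p = 0.224 in edgeR). Derl1, a derlin of the ER degradation channel, held 331, 358 and 328 CPM in sgLTN1, against 310, 306 and 304 CPM in sgNT (0.14, SE 0.06, adjusted p = 0.274 in edgeR). Its relative Derl2 was at 0.06 (SE 0.09).

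The UGGT genes Uggt1 and Uggt2 were at 0.11 (SE 0.06) and 0.24 (SE 0.15), and Vcp, the ATPase that extracts proteins from the ER membrane, at -0.07 (SE 0.05). The list's median was 0.13, and 0.03 with the loess offset, under which Uggt1 turned to -0.04. The ratio of Selenof to Uggt1 within a library overlapped between the groups, at 0.136, 0.144 and 0.158 in sgLTN1 and 0.127, 0.143 and 0.127 in sgNT.

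Txnrd2, the gene of the set with the smallest p, was compared with 7508 other genes of at least 10 CPM by the root mean square difference between log2 CPM profiles over the 6 libraries, each centred on its own mean. The closest were Cnr1, the cannabinoid receptor gene (0.0200), Pgap1, an enzyme of glycosylphosphatidylinositol anchors (0.0260), and Cyp20a1, a cytochrome P450 gene (0.0272), against a median of 0.198 over the genes compared. Their log2 fold changes were 0.29 (SE 0.08), 0.29 (SE 0.06) and 0.34 (SE 0.07), with adjusted p = 0.144, 0.0995 and 0.0880 in edgeR. These 3 were picked from 7508 genes on 6 values, and the likeness carries no test.

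**Figure D4:**
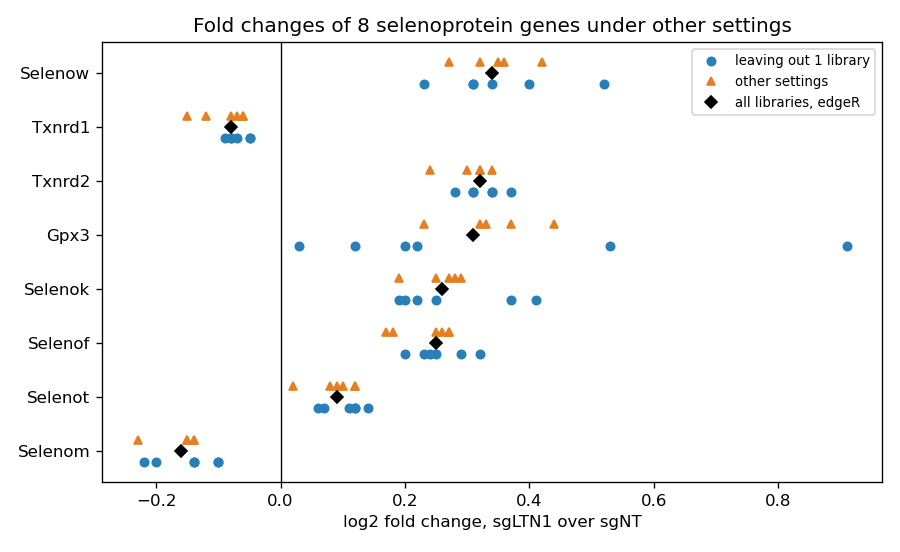
Log2 fold changes of sgLTN1 over sgNT (x axis) for the 8 tested genes of the set with all libraries in edgeR (diamonds), with 1 library left out (circles) and with other scaling, filters or models (triangles, where the setting gave an adjusted p). All 8 genes keep their sign, while Gpx3 spreads from 0.03 to 0.91.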

How the data were processed

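Ribosome footprints of MIN6 cells were counted in 3 sgLTN1 and 3 sgNT libraries, grouped by the genotype in the labels and numbered by the titles. The authors deposited whole-number read counts per gene. The build was GRCm39 and the tools were STAR 2.7.11a, featureCounts 2.12.3, SAMtools 1.9, fastp 0.23.4, Bowtie2 2.5.4 and UMI-tools 1.1.2, per the submitters' processing notes. Settings, strand and the treatment of multi-mapping reads were not given in the sources used here. The authors' deposited comparison table holds, per the file headers, log2 fold changes with standard errors, a signal column (each gene's normalized count averaged over the libraries), a Wald statistic as a score (not used), and p-values; DESeq2 1.38.3 is named in the notes. Genes averaging under 309 normalized counts have no adjusted p in it. Its direction was checked against the counts: 95.8% of tested genes have the same sign in both.

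From these counts edgeR 4.0.16 (R 4.3.3) was run with filterByExpr, TMM scaling (factors 0.954 to 1.04) and the quasi-likelihood test of sgLTN1 over sgNT with group as the only term. P-values were adjusted by Benjamini-Hochberg over 12782 genes, with a threshold of 0.05. CPM values are counts divided by TMM-scaled library size. The fits were also run on simulated counts with the same dispersion for every gene, which does not give error rates for these libraries. Each library counted as a sample. All replicate pairs differed by more than sampling noise (chi-square per degree of freedom at least 2.40). Such a spread may be technical, so it does not show that libraries came from separate cultures. DESeq2 1.42.0, other scalings, no filter, a loess offset on abundance (span 0.3), a replicate block and leaving out each library were alternatives.

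The genes, lists and rule for named genes were chosen with earlier results of these data known. The rule names every gene of the set, Ltn1, every tested gene of the lists, and the 3 genes closest in profile to the gene of the set with the smallest p. No sequences are printed, since footprint positions were not used here.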

Additional observations from a re-analysis of the deposited data

How the results depend on the processing

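The 46 named genes were refitted under 12 alternatives, except that Msrb2 gave no value without sgNT library 2, and DESeq2 gave 31 of them no adjusted p. All 8 tested genes of the set kept their sign in each of the edgeR alternatives. None of the 8 passed an adjusted p of 0.05 in edgeR except under the replicate block. Same-numbered libraries did not deviate together (correlations of -0.0483, 0.0665 and 0.0884), so the numbers are not taken to pair the libraries. Under the replicate block 609 genes were called over all genes, 2 of the set among them, Selenof (adjusted p = 0.0291) and Txnrd2 (adjusted p = 0.0416). DESeq2 called 227 genes, 1 of the set (Selenof). Total-count scaling called 42 genes (8 higher, 34 lower, against 11 and 12), no filter 222, and leaving out a library between 4 (without sgLTN1 library 2) and 333 (without sgLTN1 library 3). The count was 6 without sgLTN1 library 1, 9 without sgNT library 1 or 2 and 12 without sgNT library 3. The cause of these differences was not tested. The median of the 8 genes was 0.18 under total-count scaling, which moved the median of all tested genes to -0.09, and 0.19 to 0.24 with a library left out. Outside the set Selenoi passed in DESeq2, under the block and without sgLTN1 library 3 (adjusted p = 0.0389).

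Genes near 0 changed sign. Under total-count scaling Secisbp2l was at -0.00, Sephs1 at -0.03, Msrb1 at -0.05, Gsr at -0.05, Gss at -0.06, Gclc at -0.04, Gclm at -0.04 and Derl2 at -0.02. Under the replicate block Eefsec was at 0.00 and Trnau1ap at 0.01, and under the loess offset Trnau1ap was at 0.06 and Uggt1 at -0.04. With 1 library left out, the ranges that crossed 0 were -0.15 to 0.31 for Eefsec, -0.05 to 0.13 for Sephs1, -0.12 to 0.16 for Trnau1ap, -0.06 to 0.14 for Msrb1, -0.25 to 0.04 for Selenoh, -0.74 to 0.23 for Selenov, -0.05 to 0.17 for Gsr, -0.07 to 0.13 for Gss, -0.06 to 0.18 for Gclc, -0.03 to 0.09 for Gclm, -0.13 to 0.04 for Glrx and -0.03 to 0.12 for Derl2. The summed ER-resident to cytosolic ratio was 1.10-fold higher in sgLTN1 without Selenof and 1.18 to 1.26-fold with a library left out. Depth limits Gpx1 and Gpx4 most, at 13 counts or fewer per library.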

Other observations

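The selenoprotein genes were also divided by where their proteins are made, a grouping drawn up after the values were seen. Selenov, at -0.44 (SE 0.43), was placed in neither class. Those made at the ER (Selenok, Selenot, Selenof, Selenom, Gpx3, Selenoi, Selenon, Selenos, Selenop and Dio1 were tested, Dio2 and Dio3 were not) lay above 0 in 9 of 10 tested genes, with a median log2 fold change of 0.20, and of 0.14 with the loess offset; 47.3% of all tested genes lay above 0. The exception was Selenom. Those made on free ribosomes (Txnrd1, Selenow, Txnrd2, Txnrd3, Msrb1, Selenoh, Sephs2 and Selenoo were tested, Gpx1, Gpx4 and Gpx2 were not) lay above 0 in 4 of 8, with a median of -0.02, and of 0.02 with the loess offset. Summed over a class, the genes made at the ER held 857, 887 and 883 CPM in sgLTN1, against 777, 783 and 743 CPM in sgNT. The genes made on free ribosomes held 217, 221 and 219 CPM in sgLTN1, against 219, 221 and 216 CPM in sgNT. The sum of the class made at the ER was thus higher in each sgLTN1 library, and the sums of the other class overlapped. Few genes carry these sums. In sgLTN1, Selenof, Selenos and Selenoi averaged 245, 182 and 170 CPM of a mean sum of 875 CPM at the ER. Txnrd1 averaged 114 CPM of a mean sum of 219 CPM in the other class. No gene of either class passed in edgeR, where 5 of the 18 had an unadjusted p below 0.05 on the higher side and 1 on the lower, against 1023 and 966 of all 12782 tested genes. DESeq2 called Selenof and Selenoi, and 8.42% of all genes to which it gave an adjusted p. The difference between the classes was not tested.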
